A study of Mus musculus with 6 samples.

Results

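The 10 genes described here encode the central parts of VEGF and angiopoietin signalling in blood vessels: the ligands Vegfa, Angpt2 and Apln, the receptors Kdr, Flt1, Flt4, Tek and Tie1, the co-receptor Nrp1, and Esm1, a secreted proteoglycan that endothelial cells make when VEGF acts on them. They were taken by symbol from the gene lists of both deposited matrices, 10 of 31053 genes in each. VEGF-A is released by epithelial, stromal and myeloid cells and binds Kdr (VEGFR2), the main signalling receptor of blood endothelium, and Flt1 (VEGFR1), whose soluble form holds the ligand away from Kdr. Angiopoietin signals pass through Tek (Tie2), for which Angpt2 from endothelial cells acts mostly as an antagonist and Tie1 as a partner receptor. Sprouting tip cells are known for Kdr, Flt4, Esm1, Angpt2 and Apln. In the normal kidney, podocytes and tubule cells supply VEGF-A to the fenestrated capillaries beside them, and in tumors the same ligand drives vessel growth.

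Gene expression was read in single cells of 6 droplet libraries from mice, 1 library per condition. Kidney came from 12-week-old male C57BL/6 mice, and mammary tumor from 10-week-old female MMTV-PyMT mice, in which a mammary tumor virus promoter drives the polyoma middle T antigen in mammary epithelium. In each tissue a 60 min control digest was set beside cells that left the microfluidic digestion platform in its 15 min and its 60 min interval. The 60 min interval held cells freed from the tissue that remained after the 15 min interval. The study reports a single sequencing replicate and states that control and device conditions of a replicate shared a mouse. The libraries of a tissue are therefore not read as separate animals. All 6 suspensions were made with type I collagenase and sorted for live cells. With 1 library per condition there was no replicate check and no test. Ratios are given with exact 95% intervals for counting error only. An interval that leaves out 1 says nothing of the spread between animals or between the cells of a library. Tissue, sex, age, strain and mouse differ together between kidney and tumor, so their parts in a tissue difference cannot be told apart.

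The libraries held 69691783 to 116998401 UMIs (unique molecular identifiers, counted transcripts) in 8152 to 13719 cells, of which 5736 to 9936 a library met the limits used in the study. A cell was taken as endothelial when Pecam1, Cdh5 and Emcn summed to at least 3 UMIs with no UMI of Ptprc, the pan-leukocyte gene. That gave 568, 393 and 2457 kidney cells and 302, 257 and 783 tumor cells in the control, 15 min and 60 min libraries, the order used throughout. The label held against 8 other endothelial genes, each at least 28-fold above the other kept cells in kidney and 49.4-fold in the tumor. Between 5.81 and 17.1% of these cells also met the gate of another type. Libraries of a tissue shared 309 barcodes in kidney and 57 in tumor. They marked 17 and 9 endothelial cells, and the same members passed the 2-fold rule below without them. Levels are UMIs per 1000000 UMIs of the cells named (CPM). As 3′ counts they do not separate transcript forms such as soluble and membrane Flt1, and genes are not ranked against each other by them.

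Of the members, Kdr (chr5:75932827-75978458, minus strand), Flt1 (chr5:147561604-147726011, minus), Esm1 (chr13:113209659-113218098, plus) and Apln (chrX:48025146-48034853, minus) are shown first: both main VEGF-A receptors, and the members with the lowest (Esm1) and highest (Apln) tumor-to-kidney ratios. Coordinates are those of mm10. Their promoters are printed to show what stands before the start of genes that were lower (Kdr, Flt1, Esm1) or higher (Apln) in tumor endothelium. Each is the 250 bases before the annotated start (RefSeq, GRCm38.p6), 5′ to 3′ on the gene's strand. Capitals mark GGAAG, a form of the ETS core, or its reverse complement CTTCC.
Kdr, chr5:75978456-75978705: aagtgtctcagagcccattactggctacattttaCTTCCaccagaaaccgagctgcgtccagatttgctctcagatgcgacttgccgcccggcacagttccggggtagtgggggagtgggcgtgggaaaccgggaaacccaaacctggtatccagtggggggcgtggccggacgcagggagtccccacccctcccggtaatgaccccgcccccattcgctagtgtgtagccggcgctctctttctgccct
Flt1, chr5:147726012-147726261: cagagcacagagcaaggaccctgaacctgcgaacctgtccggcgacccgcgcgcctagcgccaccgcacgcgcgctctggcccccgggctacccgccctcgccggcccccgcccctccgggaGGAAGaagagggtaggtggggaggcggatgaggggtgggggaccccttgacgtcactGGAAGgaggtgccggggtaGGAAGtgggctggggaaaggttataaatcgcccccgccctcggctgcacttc
Esm1, chr13:113209409-113209658: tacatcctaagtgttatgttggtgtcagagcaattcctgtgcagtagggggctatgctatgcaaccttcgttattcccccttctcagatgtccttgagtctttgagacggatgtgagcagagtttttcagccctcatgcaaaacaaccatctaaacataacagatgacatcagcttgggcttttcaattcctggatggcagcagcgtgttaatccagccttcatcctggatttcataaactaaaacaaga
Apln, chrX:48034854-48035103: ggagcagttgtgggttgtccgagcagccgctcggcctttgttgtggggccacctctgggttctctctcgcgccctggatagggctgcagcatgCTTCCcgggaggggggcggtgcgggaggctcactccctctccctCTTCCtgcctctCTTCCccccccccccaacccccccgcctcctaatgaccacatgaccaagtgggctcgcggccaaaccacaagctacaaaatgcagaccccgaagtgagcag
ETS factors are the transcription factors best known at endothelial promoters. The form GGAAG or CTTCC stood 1 time before Kdr, 3 times before Flt1, 3 times before Apln and 0 times before Esm1. Esm1 had the most A- and T-rich of these windows, with 44% G and C against 61.6, 70.4 and 65.2%. Of the other members, Tie1 held 6, Nrp1 3, Flt4 1 and Tek 0. Of 32851 mouse promoters of this length, 64.1% held the letters on either strand, so their presence does not set these genes apart. A match is a string of letters, not a measured binding site. The hypoxia core form ACGTG or CACGT, present in 16.6% of all windows, was found only in the second of the 2 promoters listed for Vegfa. Other forms of either core were not searched for, so a count of 0 is for these letters only. Angpt2 had no entry in the promoter table.

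**Figure D1:**
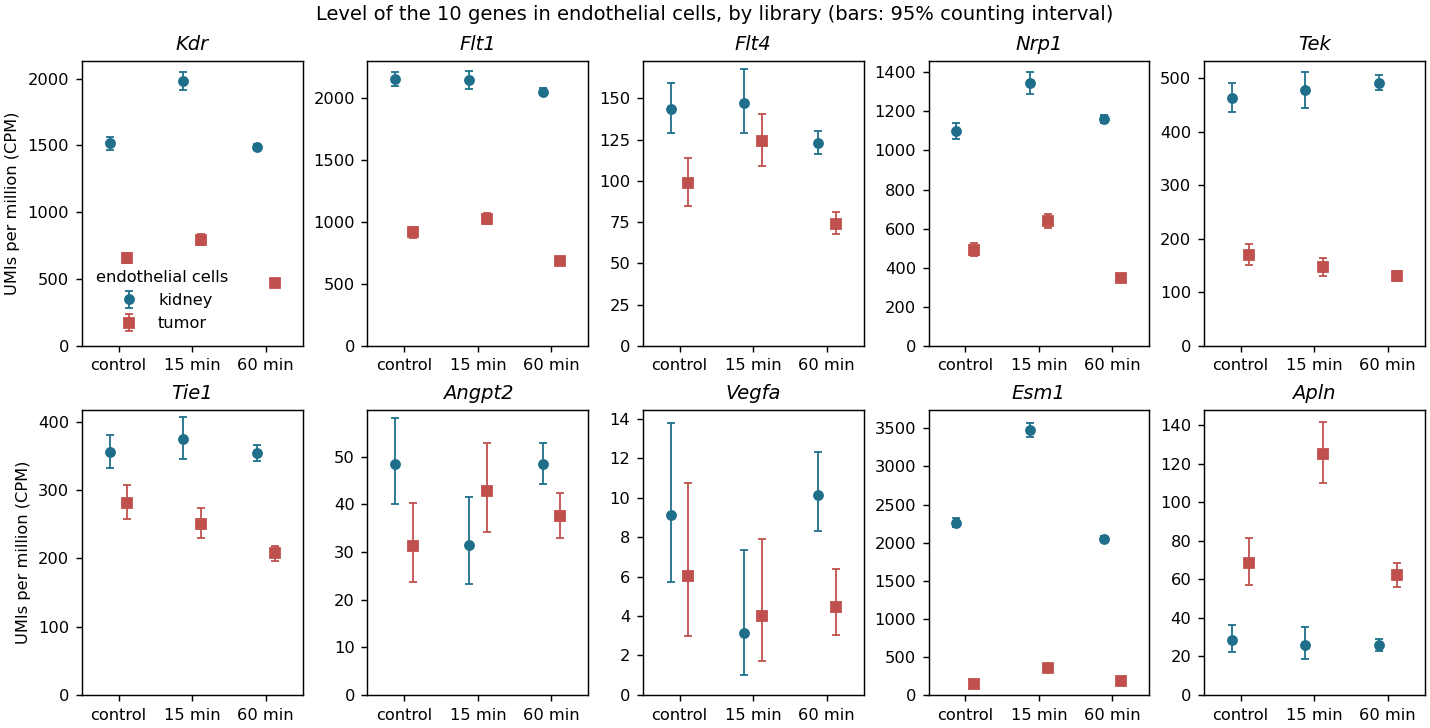
Level of each of the 10 genes in endothelial cells (y axis, CPM from 0; x axis, the control, 15 min and 60 min libraries; circles kidney, squares tumor; bars, 95% counting intervals, no replicates). All 3 kidney points lie above all 3 tumor points for Kdr, Flt1, Tek, Tie1, Esm1 and Nrp1, and below them for Apln.

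Kidney endothelial cells held more of most receptors than tumor endothelial cells. A gene was counted as past the rule when its ratio exceeded 2-fold with an interval that left out 1 in each of the 3 matched conditions, among genes with at least 20 UMIs in each comparison. By it, 5 of the 9 members that could be counted were lower in the tumor (Kdr, Flt1, Tek, Nrp1 and Esm1) and 1 was higher (Apln). Among all 9531 genes counted in the same way, 8.55% were lower and 6.41% higher in the tumor. The median log2 ratio of the members was −0.90, −1.07 and −1.38 in the 3 conditions, beside −0.08, −0.07 and −0.28 over all genes.

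Kdr stood at 1515, 1981 and 1485 CPM in kidney and at 654, 795 and 470 CPM in tumor endothelial cells. The tissues did not overlap, and the 15 min library was the highest of each. The tumor-to-kidney ratio was 0.432 (0.404 to 0.461), 0.402 (0.378 to 0.427) and 0.317 (0.305 to 0.329). The share of cells with a Kdr UMI was alike in the tissues at full depth, 87.9, 95.2 and 90.5% in kidney against 86.8, 93.4 and 87.6% in tumor. Tumor endothelial cells were deeper, with medians of 5254, 7693 and 8430 UMIs against 4168, 3862 and 3873. With each cell thinned to 1000 UMIs the shares parted, at 67.3, 79.4 and 68.8% against 46, 51.0 and 37.9%. In proximal tubule and luminal tumor cells, which should lack the gene, at most 1.40% held a UMI, so these shares are not background.

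Flt1 stood at 2148, 2144 and 2046 CPM in kidney and at 914, 1022 and 681 CPM in the tumor. The 3 kidney libraries lay close together and all above the tumor's. The ratios were 0.426 (0.403 to 0.450), 0.477 (0.451 to 0.504) and 0.333 (0.322 to 0.344). The upper bound in the 15 min pair reached past the 2-fold line, and scaling by the median of gene ratios took Flt1 off the count.

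Flt4 (chr11:49609263-49652739, plus), the receptor for VEGF-C and VEGF-D that marks lymphatic and sprouting endothelium, differed less. It measured 144, 147 and 123 CPM in kidney and 98.4, 124 and 74.1 CPM in the tumor, with ratios of 0.685, 0.842 and 0.602. The tissues touched, since the tumor's 15 min library lay above the kidney's 60 min library, and the 15 min interval held 1 (0.701 to 1.01).

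Nrp1 (chr8:128358604-128503363, plus), which presents VEGF-A to Kdr, followed the VEGF receptors. Its levels were 1098, 1346 and 1162 CPM in kidney and 492, 637 and 348 CPM in the tumor, without overlap. The ratios were 0.448 (0.415 to 0.483), 0.474 (0.442 to 0.508) and 0.299 (0.286 to 0.313). The microRNA gene Mir1903 lies inside the Nrp1 locus on the same strand.

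Of the angiopoietin receptors, Tek (chr4:94739289-94874976, plus) was past the rule and Tie1 (chr4:118471191-118490061, minus) was not. Tek stood at 464, 478 and 492 CPM in kidney and at 170, 147 and 131 CPM in the tumor, with ratios of 0.366 (0.321 to 0.415), 0.307 (0.268 to 0.352) and 0.265 (0.246 to 0.285). Tie1 stood at 355, 375 and 354 against 282, 251 and 207 CPM, with ratios of 0.793, 0.669 and 0.585. The kidney libraries were above the tumor's for both, by a wider gap for Tek.

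Angpt2 (chr8:18690263-18741562, minus, with Mcph1 on the opposite strand) was low and not ordered by tissue. Its levels were 48.4, 31.5 and 48.5 CPM in kidney (117, 50 and 492 UMIs) and 31.2, 42.7 and 37.5 CPM in the tumor (57, 85 and 251 UMIs). The ratio was below 1 in the control (0.643) and 60 min pairs (0.773) and above it in the 15 min pair (1.36, 0.945 to 1.96). Without the cells that also met another gate the 15 min log2 ratio was −0.40. In the tumor's 15 min library 1 cell held 24 of the 85 UMIs, and the 26 cells with the most Angpt2 held 94.1%. The direction of the 15 min ratio therefore rests on few cells.

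Esm1, whose locus has Gzmk on the opposite strand, differed most among the members. Kidney endothelial cells held 2260, 3474 and 2053 CPM, and tumor endothelial cells 137, 355 and 187 CPM. The tumor-to-kidney ratio was 0.0607 (0.0533 to 0.0689), 0.102 (0.0943 to 0.111) and 0.0912 (0.0861 to 0.0965), so that kidney was 9.79-fold to 16.5-fold above the tumor. No tumor library came near a kidney library, and the 15 min library was again the highest of each tissue. An Esm1 UMI was present in 64.4, 80.4 and 64.4% of kidney and 18.2, 29.6 and 18.5% of tumor endothelial cells, or 52.2, 68.4 and 49.7% against 7, 16.0 and 8.30% at 1000 UMIs a cell. Proximal tubule cells held one in 0.590, 0.479 and 2.28%, at median depths of 6103, 7242 and 6256 UMIs.

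The tumor's Esm1 came from few cells. The 31, 26 and 79 tumor endothelial cells with the most Esm1 (1 cell in 10) held 88.8, 79.0 and 91.2% of its UMIs, with up to 79 in 1 cell, and the median cell held none. In kidney the same fraction held 45.1, 37.1 and 45.8%, and the median cell had 3, 8 and 3 UMIs. For Kdr this share was 23.1 to 32.3% over all 6 libraries, so Kdr was spread over cells in both tissues. Endothelial cells carried 93.9 to 98.5% of all Esm1 UMIs of a library.

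Apln, the apelin peptide made by sprouting endothelium, was higher in the tumor. Kidney endothelial cells stood at 28.6, 25.8 and 25.7 CPM (69, 41 and 261 UMIs) and tumor endothelial cells at 68.4, 125 and 62.1 CPM (125, 249 and 416 UMIs). The lowest tumor library was above the highest kidney library, and the tumor's 15 min library was the highest. The ratios were 2.39 (1.77 to 3.26), 4.85 (3.47 to 6.92) and 2.41 (2.06 to 2.83). Few cells held these UMIs, a spread that the intervals leave out. The 1 cell in 10 with the most Apln held 85.6, 70.3 and 86.3% of the tumor's, with up to 38 in 1 cell, and 100% in each kidney library. A UMI was found in 5.28, 5.34 and 5.66% of kidney and 16.2, 28.4 and 17.4% of tumor endothelial cells. At 1000 UMIs a cell the shares were 1.98, 2.06 and 1.94% against 5.33, 8.56 and 4.47%. In luminal tumor cells, at median depths of 8418, 9842 and 9241 UMIs, 0.997, 1.79 and 1.81% held one.

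Vegfa (chr17:46016993-46032369, minus) was low in endothelial cells of both tissues. It was 9.11, 3.15 and 10.1 CPM in kidney (22, 5 and 103 UMIs) and 6.02, 4.02 and 4.48 CPM in the tumor (11, 8 and 30 UMIs). Kidney B lymphocytes, taken as a type that should hold little, had 1.16, 3.62 and 4.84 CPM and kidney T and NK cells 15.2, 7.03 and 9.44 CPM. The counting intervals of endothelial and T and NK cells overlapped in all 3 kidney libraries. The endothelial level was above that of B lymphocytes in the control, on 22 UMIs against 1, and at 60 min, on 103 against 9. Endothelial Vegfa ratios are therefore read no further than their values.

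**Figure D2:**
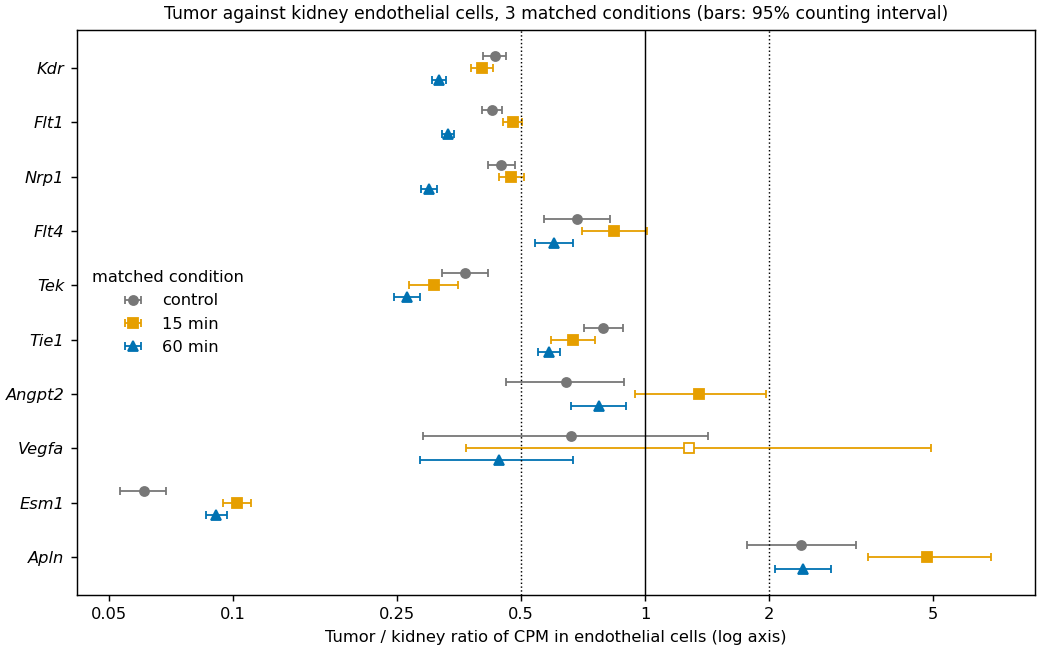
Tumor-to-kidney ratio of CPM in endothelial cells for each member (x axis, log scale; y axis, gene; symbols and colours, matched condition; bars, 95% counting intervals; open symbols, under 20 UMIs). Esm1 lies far to the left at 0.0607 to 0.102, Kdr, Flt1, Tek and Nrp1 lie between 0.265 and 0.477, and Apln lies right of 2.

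Endothelial cells fell into marker gates in different shares in the tissues. Cells were divided by a lymphatic gate (Prox1, Mmrn1, Lyve1), an arterial gate (Gja4, Gja5, Fbln5), at least 1 Ehd3 UMI, and at least 2 Plvap UMIs, in that order. Ehd3-positive cells made up 61.6, 62.3 and 59.3% of the kidney's and 15.6, 22.2 and 20.1% of the tumor's endothelial cells. Arterial-gated cells were 3.87% of the kidney's control and 4.07% of its 60 min cells, and 23.8, 29.2 and 30.5% of the tumor's. These gates count UMIs at full depth, and tumor endothelial cells were deeper. The part of depth in the shares was not tested. Ehd3 is known from glomerular capillaries, but the tumor cells carried it too, so the gate is named by the gene alone.

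Within Ehd3-positive and Plvap-positive cells Kdr, Esm1 and Apln differed between the tissues in the same direction as in all endothelial cells. The ratio of Kdr was 0.351, 0.388 and 0.300 in Ehd3-positive cells and 0.506, 0.424 and 0.298 in Plvap-positive cells. That of Esm1 was 0.0452, 0.0465 and 0.0402, and 0.0518, 0.104 and 0.0421. Apln was 3.11, 6.03 and 2.55, and 4.31, 3.66 and 2.90 times the kidney's. Not every ratio stayed past 2-fold, since Kdr (0.506) and Nrp1 (0.530) were just inside it in the control's Plvap-positive cells. Angpt2 was not steady across the gates. Its ratio was 0.297, 0.539 and 0.754 in Ehd3-positive cells and 1.70 (0.955 to 3.13), 1.57 (0.956 to 2.68) and 0.638 in Plvap-positive cells.

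Arterial-gated cells were different for Kdr. Those of the kidney held 509 CPM in the control (22 cells) and 404 CPM at 60 min (100 cells), the lowest Kdr of the kidney's sub-gates of at least 20 cells. Those of the tumor held 854, 798 and 553 CPM, and the ratio turned to 1.68 (1.28 to 2.24) and 1.37 (1.18 to 1.60). Flt1 was 1.24 (1.02 to 1.53) and 0.980 (0.882 to 1.09) there, Nrp1 0.835 and 0.654, and Tek 0.465 and 0.526. Esm1 narrowed to 0.223 in the control and 0.677 at 60 min. The lower tumor level of Kdr was therefore not seen in the arterial gate, while that of Tek was. Plvap stood at 1845, 1777 and 2285 CPM in the tumor's arterial-gated cells, against 1851, 1880 and 1906 CPM in its Plvap-positive cells. In the kidney's it stood at 1094 and 1207 CPM (control, 60 min), against 3526 and 3796 CPM. The gate thus did not hold like cells in the tissues, and its ratios are not read as those of arterial endothelium. The kidney's 15 min library had under 20 arterial-gated cells and is not given.

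Inside the tumor, Esm1 was highest in arterial-gated cells, at 267, 585 and 419 CPM against 80.6, 318 and 71.7 CPM in Plvap-positive cells. In kidney the order was the opposite, with 2690, 3800 and 2376 CPM in Ehd3-positive, 1555, 3049 and 1700 CPM in Plvap-positive and 1196 and 620 CPM (control, 60 min) in arterial-gated cells. The 20 lymphatic-gated tumor cells at 60 min held 280 CPM of Flt4 (210 to 365), against 61.3 to 77.6 CPM in the Ehd3-positive, Plvap-positive and arterial-gated cells of that library.

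**Figure D3:**
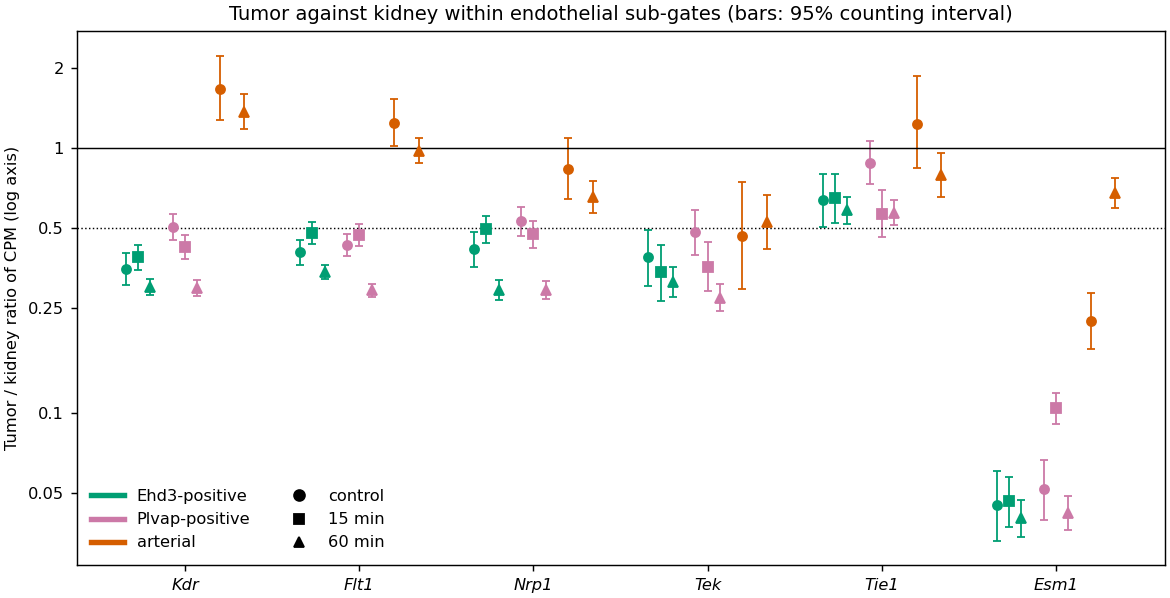
Tumor-to-kidney ratio of CPM (y axis, log scale) for members (x axis) within Ehd3-positive, Plvap-positive and arterial-gated endothelial cells (colours), by matched condition (symbols), with 95% counting intervals and at least 20 cells on each side. Kdr is below 1 in the first pair of gates and above 1 in arterial-gated cells.

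Across single cells, some pairs of members were found together more often than apart. Among kidney control cells thinned to 1000 UMIs, an Esm1 UMI was present in 65.2% (60.2 to 70.1) of cells with Kdr and in 25.3% (19.1 to 32.2) of those without. The same comparison gave 72.2 against 53.8% at 15 min and 60.6 against 25.6% at 60 min. In the tumor it gave 8.70 against 5.56%, 18.3 against 13.5% and 13.1 against 5.35%, with intervals apart at 60 min only. Of the 45 pairs of members, Kdr with Flt1, Kdr with Esm1, Kdr with Nrp1, and Flt1 with Esm1 had intervals apart in 4 of 6 libraries. Over the 270 pairs and libraries, the second gene was found more often beside the first in 28 and less often in 6, by intervals apart. The latter were all in kidney. At 60 min Esm1 was found in 28.4% of cells with Angpt2 against 50.7% of those without, and in 44.2% of cells with Tek against 53.4%. Angpt2 was found in 2.94% of control cells with Kdr against 10.4% of those without. Cells of a library share its depth and its mix of endothelial types, so these shares are a description.

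Between platform intervals and the control, few members passed 2-fold. In kidney the 60 min interval had 0 of 10 past the rule (background 2.88% of 11821 genes), and their ratios ran from 0.856 for Flt4 to 1.11 for Vegfa. The 15 min interval had 1, Vegfa, lower at a ratio of 0.346 (0.102 to 0.936), on 5 against 22 UMIs (background 5.94% of 9783 genes). It was not past the rule without the cells that met another gate or with no upper filter on detected genes and mitochondrial UMIs, where its log2 ratio was −0.35 in place of −1.53.

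The other members of the kidney's 15 min library shifted by less. Esm1 was 1.54 times (1.48 to 1.60), Kdr 1.31 times (1.25 to 1.37) and Nrp1 1.23 times (1.16 to 1.30) the control, while Flt1, Flt4, Tek and Tie1 were within 0.998 and 1.06 of it. Angpt2 was at 0.650 (0.457 to 0.913). In the same cells the CPM of 12 stress genes was 10209 at 15 min, against 22537 in the control and 23245 at 60 min, and 9 of the 12 were lower by the rule. Proximal tubule genes stood at 598 CPM against 159 in the control and 226 at 60 min, and 10.9% of cells met another gate against 5.81%. Their part in the shifts of the members was not tested.

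In the tumor the 15 min interval had 1 of 9 counted members past the rule (background 4.29% of 9573 genes). It was Esm1, at 2.58 times the control (2.24 to 3.00). Apln was at 1.83 (1.47 to 2.29), Nrp1 at 1.30, Flt4 at 1.26, Kdr at 1.22 and Flt1 at 1.12, while Tek and Tie1 were at 0.866 and 0.891. Without the cells that met another gate, 17.1% at 15 min and 12.6% in the control, the log2 ratio of Esm1 was 0.99 in place of 1.37, just inside 2-fold.

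The tumor's 60 min interval had 0 of 10 past the rule (background 4.23% of 10833 genes), but all 6 receptor and co-receptor members were lower than in the control. Kdr was at 0.719 (0.672 to 0.769), Flt1 at 0.745, Flt4 at 0.752, Tek at 0.770, Tie1 at 0.736 and Nrp1 at 0.708. Their intervals left out 1, and the median log2 ratio of all members was −0.42 beside −0.10 over all genes. Esm1 stood at 1.36 (1.19 to 1.57), Angpt2 at 1.20 and Apln at 0.909. Stress genes were at 18761 CPM at 60 min against 12873 in the control, and epithelial genes at 380 against 775. Their part was not tested.

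The genes around the members were taken from lists by role. Of 10 ligands of these receptors, 5 could be counted in all 3 tissue pairs, with 3 higher in tumor endothelium (Apln, Vegfc and Pgf) and 0 lower, where over all genes 6.41% were higher and 8.55% lower. The same shares stand behind the counts of the other lists. Vegfc, the ligand of Flt4, stood at 52.5, 70.9 and 56.3 CPM in the tumor against 17.8 to 33.4 CPM in the kidney libraries, 2.95-, 2.12- and 2.81-fold higher. Arterial-gated tumor cells held 130, 178 and 109 CPM of Vegfc, the highest of the tumor's sub-gates of at least 20 cells. Kidney arterial-gated cells held as much, 136 CPM (77.6 to 220) in the control and 136 CPM (106 to 171) at 60 min, so the tissues overlapped in that gate. Pgf, a ligand of Flt1, had 21, 21 and 118 UMIs in the tumor against 4, 0 and 3 in kidney. The tumor level was 11.5, 10.6 and 17.6 CPM, below the 39.9, 63.6 and 50.7 CPM of luminal cells in the same libraries. Carry-over of Pgf from other tumor cells into the endothelial cells was not tested.

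Among 10 receptors and co-receptors, 4 were lower, all of them members, and 1 was higher. The higher one was Aplnr, the receptor for apelin, with 383, 574 and 361 CPM in the tumor against 50.9, 90.7 and 57.8 CPM in kidney, 7.52-, 6.32- and 6.25-fold. Apln and its receptor thus were both higher in tumor endothelium. Ptprb, the phosphatase that holds Tek inactive, was past 2-fold lower in 2 of the 3 pairs, at 0.408 in the control and 0.319 at 60 min.

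The list of tip-cell and VEGF-induced genes went mostly the other way from Kdr. Of 16, 8 were higher and 2 lower in tumor endothelium, with a median log2 ratio of 1.00, 2.35 and 1.33. Col4a1 and Col4a2, the main collagen chains of basement membrane, were 6.99-, 7.14- and 5.46-fold and 7.77-, 8.04- and 5.85-fold higher. Mcam, an adhesion molecule, was 10.5-, 7.04- and 7.07-fold higher, and the laminin chain gene Lama4 was 2.62-fold higher at 60 min. The lower ones were Esm1 and Ramp3, a partner of the adrenomedullin receptor, at ratios of 0.186, 0.199 and 0.160. Kcne3, named after its values were seen, had the widest gap, with 148, 322 and 105 CPM against 2.07, 7.56 and 2.76 CPM. Marker genes of pericytes and fibroblasts summed to 125, 148 and 166 CPM in tumor endothelial cells, against 43.9, 34.0 and 49.7 CPM in kidney. The part of such transcripts in the ratios of this list was not tested.

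Downstream genes differed less. Of 17, 14 were counted, and 2 were higher in the tumor with 0 lower: Pik3r1, the regulatory subunit of PI3 kinase, at 2.30-, 2.29- and 2.34-fold, and Prkca, protein kinase C alpha, at 4.84-, 4.85- and 3.77-fold. Of 12 hypoxia-responsive genes, 10 were counted, with 1 higher and 1 lower, close to the shares over all genes. Slc2a1, the glucose transporter, was higher at 2.64-, 3.50- and 2.54-fold, and Egln3, a prolyl hydroxylase that marks HIF for decay, was lower at ratios of 0.199 to 0.264. In the kidney's 15 min interval Adm (0.181) and Ankrd37 (0.217) were lower than the control, and in the tumor Kcne3 was higher at 15 min (2.17) and Rcan1, a calcineurin inhibitor, at 60 min (3.50).

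**Figure D4:**
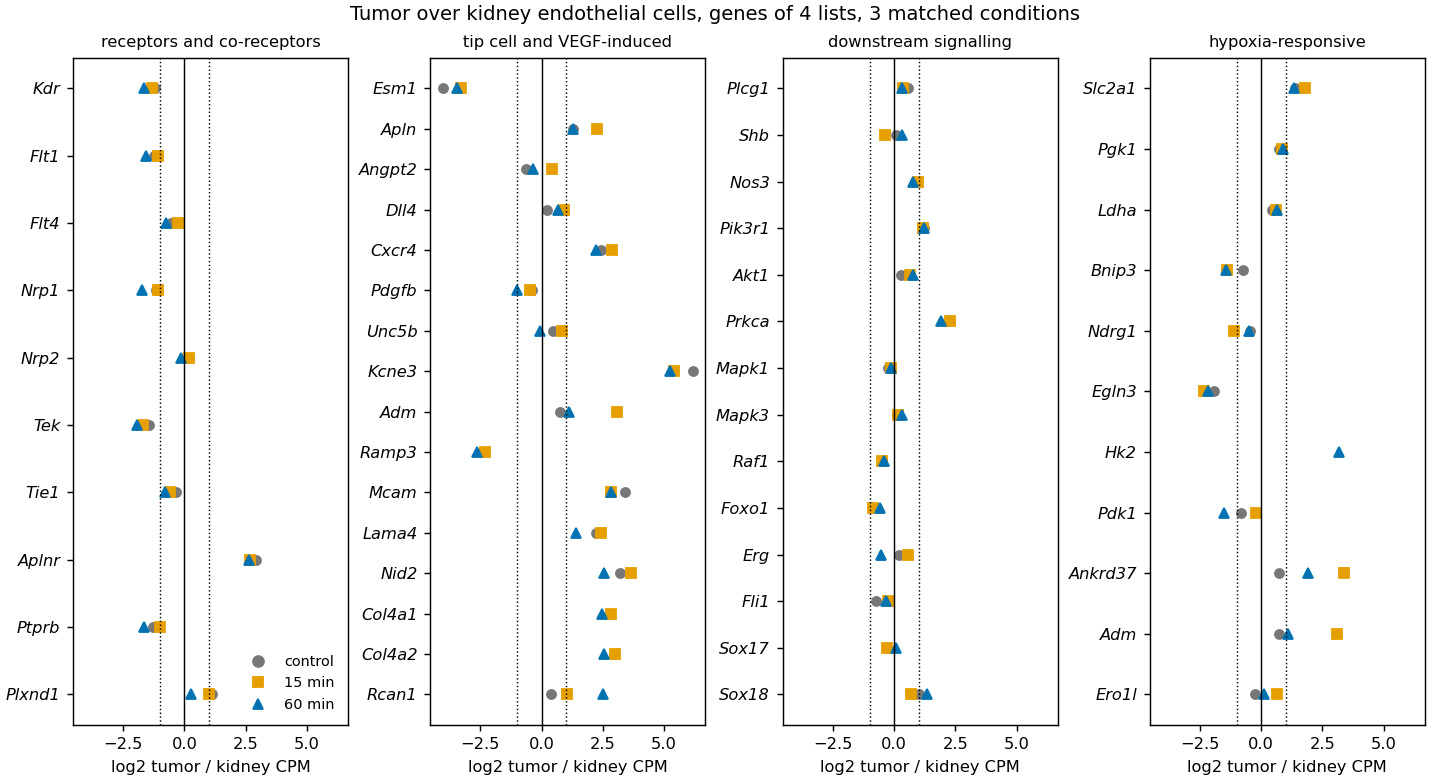
Log2 tumor-to-kidney ratio of CPM in endothelial cells (x axis) for genes of 4 lists (panels; y axis, gene), by matched condition (symbols). Kdr, Flt1, Nrp1 and Tek lie left of 0 and Aplnr right of it, and Col4a1, Col4a2, Mcam and Kcne3 lie right of 0 among the VEGF-induced genes.

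Outside the endothelium, Vegfa was read in the other gated types. In kidney it was highest in 3 types of the distal nephron and collecting duct, among types of at least 50 control cells. Principal cells of the collecting duct held 127 CPM (97.1 to 164) in the control and 109 CPM (85.8 to 137) at 60 min, distal convoluted tubule cells 95.7, 58.5 and 63.3 CPM, and thick ascending limb cells 72.6, 78.1 and 102 CPM. These 3 types overlapped within their counting intervals. Intercalated cells, another type of that region, stood lower, at 24.5 CPM (13.7 to 40.4) on 15 UMIs in 118 cells over the 3 libraries. Granulocytes, with 32 and 42 cells, were at 129 (62.0 to 238) and 37.7 CPM in the control and at 60 min. Proximal tubule cells stood lower, at 23.5, 19.8 and 35.1 CPM, but with 2713, 7104 and 2724 cells they carried 57.5, 94.0 and 52.1% of the Vegfa UMIs of their libraries. Podocytes, the best-known source in the glomerulus, numbered 11 cells over the 3 libraries, with 29 Vegfa UMIs, 566 CPM (379 to 812). Macrophages held 4.32, 1.31 and 4.96 CPM, no more than T and NK cells.

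In the tumor the sources were different. Macrophages held 82.9 (77.7 to 88.3), 40.1 (36.1 to 44.4) and 35.7 CPM (32.9 to 38.7), fibroblasts 83.9, 67.4 and 37.9 CPM, and luminal epithelial cells 27.4, 18.9 and 17.1 CPM. Macrophages carried 43.6, 29.9 and 41.4% of the tumor's Vegfa UMIs and luminal cells 38.3, 59.5 and 27.4%. Tumor endothelial cells were the lowest of the types with over 50 cells in a library, at 6.02, 4.02 and 4.48 CPM. Pericytes were at a like level, with 4 UMIs in 126 cells over the 3 libraries, 4.55 CPM (1.24 to 11.7).

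Vegfa was highest in the tumor's control library in macrophages, fibroblasts, T and NK cells and luminal cells. Macrophages were at 0.483 (0.427 to 0.546) of the control at 15 min and 0.431 (0.388 to 0.478) at 60 min, and fibroblasts at 0.452 (0.290 to 0.730) at 60 min, all past 2-fold. T and NK cells held 71.9, 19.7 and 53.0 CPM, with a ratio of 0.274 (0.184 to 0.396) at 15 min. Without the cells that held any UMI of the macrophage genes they stood at 65.4, 19.1 and 50.6 CPM. Carry-over of Vegfa from other tumor cells into T and NK cells was not tested. Luminal cells were at 0.688 and 0.625 of the control. The kidney's types were mixed in this order. Distal convoluted tubule cells were also highest in the control, with ratios of 0.611 at 15 min and 0.662 at 60 min. So were T and NK cells, at 0.464 and 0.623, and principal cells were at 0.859 at 60 min. The intervals of these ratios all held 1. Thick ascending limb cells and macrophages were highest at 60 min, and proximal tubule cells were at 1.49 times the control there.

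**Figure D5:**
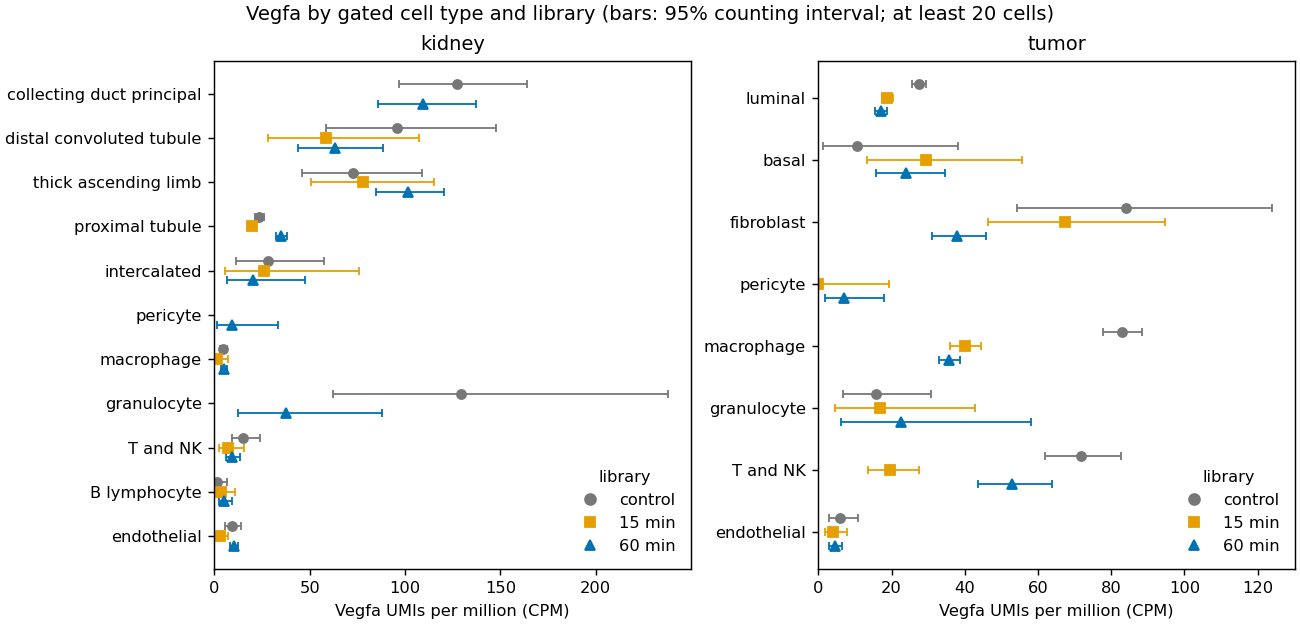
Vegfa level (x axis, CPM from 0) in gated types of at least 20 cells (y axis) of kidney (left) and tumor (right), by library (symbols), with 95% counting intervals. Principal, distal convoluted tubule and thick ascending limb cells lie at 58.5 to 127 CPM in kidney, with intercalated cells lower. Granulocytes of the kidney's control library (32 cells) lie at 129 CPM. Macrophages, fibroblasts and T and NK cells of the control library lead in the tumor at 71.9 to 83.9 CPM.

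Members other than Vegfa also appeared outside the endothelium. Tumor pericytes held 214 CPM of Flt1 (154 to 291) at 15 min and 317 CPM (273 to 367) at 60 min, and 42 kidney pericytes at 60 min held 1 Flt1 UMI. Pericytes of both tissues held Angpt2, at 73.6 CPM in kidney at 60 min and 83.7 and 70.1 CPM in the tumor at 15 and 60 min, on 16, 16 and 40 UMIs. The tumor pericytes held little of the other VEGF and Tie receptors, with 1 UMI of Kdr, 1 of Tie1 and 0 of Flt4 and Tek in the 126 pericytes of the 3 tumor libraries.

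Nrp1 was read in macrophages, fibroblasts and pericytes as well as in the endothelium. Tumor macrophages held 59.6, 117 and 105 CPM and tumor fibroblasts 151, 127 and 162 CPM, and pericytes 285 CPM in kidney at 60 min and 246 and 263 CPM in the tumor at 15 and 60 min. Endothelial cells carried 79.7, 82.2 and 86.4% of the kidney's Nrp1 UMIs but 48.0, 47.2 and 45.3% of the tumor's, where macrophages carried 36.5, 40.0 and 34.2%. Kidney leukocytes at 60 min held endothelial transcripts at a like level in several gates. Kdr was at 32.4 to 33.1 CPM in T and NK cells and macrophages and higher in B lymphocytes (40.3 to 61.2 CPM by its interval), with a UMI in 4.51, 6.99 and 4.18% of cells. Esm1 was at 51.9, 37.7 and 56.4 CPM in these gates. Few cells held these UMIs, with 93 Kdr UMIs in 4.18% of 431 B lymphocytes. Free RNA and endothelial cells caught together with a leukocyte were not told apart. Neither gene is read as made by leukocytes there.

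Likeness was measured as Pearson's r of log2(CPM + 10) over 40 pairs of a type and a library with at least 50 cells, among 14137 genes with at least 200 UMIs. The points share libraries and the contrast of endothelium with all else, so r is high for any endothelial gene and is given with no p. Kdr was most like Ptprb (0.992), Cd300lg (0.985) and Adgrl4 (0.982), and Flt1 most like Adgrf5 (0.989). Flt4 and Tie1 were nearest to Arhgef15 (0.998) and Robo4 (0.996), Tek to Unc45b (0.978), and Angpt2 to Piezo2 (0.955). Esm1 was nearest to Exoc3l2 (0.970) with Kdr in its first 3 (0.963), and Apln was nearest to its receptor gene Aplnr (0.983). Nrp1 (Arsa, 0.915) and Vegfa (Haghl, 0.799) had no gene as near.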

How the data were processed

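Cells of 6 10x libraries (v3 chemistry) were analysed. The authors aligned reads to mm10 with Cell Ranger 3.1.0, joined the libraries of each tissue in a depth-equalising aggregation and deposited the unfiltered matrices of UMI counts. Cells with 200 to 3000 genes and at most 50% mitochondrial UMIs (kidney) or 200 to 4000 genes and at most 25% (tumor) were kept, as in the study, and no doublet caller was run. Barcode suffixes gave each cell's library. Types were gated on UMI sums of marker genes, and cells meeting several gates besides the endothelial one were left out. UMIs were summed per type and library (CPM). Intervals at 95% are exact Poisson for CPM, exact conditional Poisson for ratios and Clopper-Pearson for shares, with a floor of 3 counts at 0. The call rule was run on simulated Poisson counts with known changes. These hold no spread between cells or libraries, so the run says nothing of calls under such spread. The genes named are the 10 members, up to 5 others of a list with the most UMIs among those past 2-fold, and the 3 most like each member. The members, gates and lists were chosen with earlier results of these data known. In all, 11 other settings were tried, and 1 more (without shared barcodes) was chosen after seeing the data. Positions are from the mm10 annotation and promoters from RefSeq. Python 3.11.15, numpy 2.4.6, scipy 1.17.1, pandas 2.3.3 and matplotlib 3.10.9 were used.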

Additional observations from a re-analysis of the deposited data

Results flagged for a closer look

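A pair of members moved in opposite directions between the tissues when the 60 min interval was set against the control. Esm1 was at 0.909 times the control in kidney endothelial cells (0.882 to 0.936) and at 1.36 times in tumor endothelial cells (1.19 to 1.57). Nrp1 was at 1.06 times the control in kidney (1.01 to 1.10) and at 0.708 times in the tumor (0.655 to 0.765). Each ratio sets 1 library against 1 library, so no agreement between samples can be read from it. The kidney ratios were near 1, and the difference between the tissues was not tested.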

How the results depend on the processing

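Under 11 other settings of the processing, and 1 chosen after seeing the data, the 6 counts of members past the rule gave 72 values, of which 62 stayed within 1.5 times the count reported and 10 did not, and no log2 ratio past the rule changed sign. For the kidney's 15 min interval, where 1 member is reported, the count was 0 with no upper limits on genes or mitochondria, 0 without cells passing another gate, 0 at 3-fold, 0 with at least 100 UMIs and 3 at 1.5-fold. For the tumor's 15 min interval it was 0 without cells passing another gate, 0 at 3-fold and 2 at 1.5-fold. At 3-fold the tissue comparison had 0 members higher and 1 lower, Esm1. Thinned cells had 1 member past the rule in the kidney's 15 min interval, Angpt2 in place of Vegfa. Scaling by the median of gene ratios left 4 members lower in the tumor, and no upper limits gave 6. The log2 median of gene ratios, which that scaling subtracts from every log2 ratio, was −0.19 (tissues, 60 min), 0.13 (kidney, 15 min), 0.11 (tumor, 15 min) and −0.10 (tumor, 60 min). Of 628 log2 ratios, 85 moved beyond their counting interval, and of 104 Vegfa levels 38. The cause was not tested. No paired analysis was possible because each condition has 1 library and the results come from no test. Depth limits Vegfa in endothelial cells, at 5 to 103 UMIs a library.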

Other observations

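Other ligands of the family had their own sources. Apela, a second ligand of Aplnr, was read in kidney principal cells at 498 CPM in the control and 378 CPM at 60 min and in thick ascending limb cells at 85.2, 65.6 and 61.3 CPM, and no Apela UMI was found in any gated tumor type, which allows up to 0.0774 to 0.130 CPM in luminal cells at 3 counts. Vegfb was read in intercalated cells at 176, 216 and 284 CPM and in distal convoluted tubule cells at 196, 275 and 93.1 CPM. Pgf was read in the tumor's basal cells at 21.1, 104 and 121 CPM, on 4 UMIs in the control, and in its luminal cells at 39.9, 63.6 and 50.7 CPM. Tumor macrophages held 15.3, 3.59 and 7.99 CPM of Pgf, lower than the control by the 2-fold rule at 15 min, at a ratio of 0.234 (0.157 to 0.342).

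Of the kidney's Angpt2 UMIs, 27.8, 4.92 and 27.5% lay in cells that met no gate. These were 54 of 2778 such cells, with 259 UMIs, and 40 of the 54 had no UMI of Pecam1, Cdh5 or Emcn. Chosen after their values were seen, the genes that stood out most in them against the other ungated cells were Aqp1 at 89.4-fold, in 31 of the 54, Fst at 82.1-fold, Lypd2 at 64.0-fold, Bst1 at 55.6-fold, Npnt at 50.8-fold and Apela at 47.6-fold, in 38 of the 54. Angpt2 was part of how these cells were picked, so its level in them is no finding, and they are given no cell type name.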
